A study of Mus musculus with 4 samples.

Results

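The untreated culture of the IMS/N line was described by the signal of its array, 1 of the 4 arrays of the series. IMS/N is a line of immortalized mouse hepatic stellate cells. It came from livers of normal 129/Sv mice and was immortalized by infection with SV40, a virus whose large T antigen binds the p53 and RB proteins. The other cultures of the line received PA (the saturated fatty acid palmitate), medium conditioned by ADSCs (stem cells derived from adipose tissue), or both, and the culture described here received neither. The sources used here do not give what it received in their place, its passage number or its density. Total RNA was measured on 1 one-colour array, so there was no replicate culture, no test was run, and each value describes this culture.

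Hepatic stellate cells are the pericyte-like cells of the liver sinusoid, and in the healthy organ they hold retinyl esters in lipid droplets. After injury they lose these stores, acquire contractile fibres and lay down collagen, a change called activation. Growth on plastic brings about much of the same change, so cultured stellate cells are usually read by 2 opposed sets of genes, those of the quiescent, retinoid-storing cell and those of the activated myofibroblast.

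A gene's level is the log2 of the processed intensity, the background-corrected brightness of a spot, for the brightest of its probes that passed the detection limit. The scanner software calls a spot well above background when it stands clear of the local background and its noise, and a gene passed when at least 1 of its probes did. Of 26804 gene names, 17777 passed, which is 66.3%, and the median level was 5.18 over all names and 8.40 over those that passed. A gene is called bright when its level was at least 11.90, the top 10.0% of all names, and dim when it passed with a level of 5.23 or less, which held for 4445 names or 16.6%. Among 20257 names found in the reference gene table, 73.3% passed, and their median level was 7.02. Probes differ in how strongly they bind, so the levels of different genes do not give the order of their RNA amounts, and they are given here to place each gene in a class. The beta-actin gene Actb, for example, had a single probe at only 10.94, while gamma-actin (Actg1) reached 16.00.

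The precision of a level came from 244 probes printed on 7 to 10 spots each. The median SD between spots was 0.041 at levels above 11, 0.083 at levels of 5 to 7 and 0.327 at levels of 2 to 3. This spread covers spots of 1 array and not differences between cultures. Genes with several probes varied far more than that. For the 5761 genes whose several probes all passed, the brightest and the dimmest probe lay a median of 2.92 apart, and 2232 of 9189 genes with several probes (24.3%) had some probes that passed and some that did not. Olfactory receptor genes, which function in nasal neurons, give a view of how far the limit admits weak signal: 247 of 915 passed (27.0%), none was bright, their median level was 0.71, and their 95th percentile was 5.21. Of the listed genes that passed, 189 lay at or below that level.

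**Figure D1:**
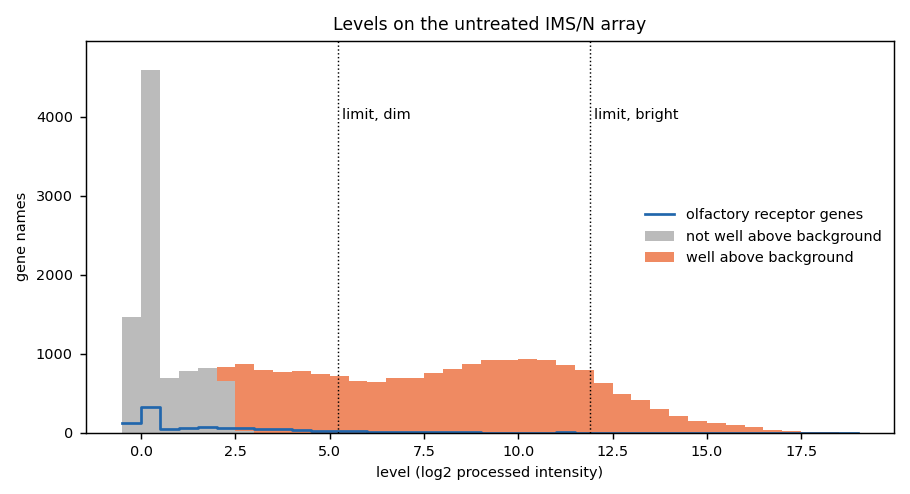
Number of gene names (y) by level in bins of 0.5 (x, log2 processed intensity) on the untreated array, stacked by whether the gene was well above background, with olfactory receptor genes as a line. Dotted lines mark the limits for dim (5.23) and bright (11.90); names that did not pass pile up near 0, where the 153 negative-control spots also lie (median 0.06).

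Lists of 1050 genes covering stellate, matrix, signalling, lineage and cell state genes were followed. Of these, 1041 were on the array and 155 were bright. Well above background were 816 (78.4%), against 66.3% of all names and 73.3% of names in the reference table. The share that passed was 79.5% of 112 stellate genes, 83.8% of 229 matrix genes, 81.6% of 375 signalling genes and 62.6% of 254 lineage genes, which are markers of other cell types, mesenchymal transcription factors and Hox genes. Bright genes numbered 33 of the stellate (29.5%), 47 of the matrix (20.5%), 31 of the signalling (8.27%) and 9 of the lineage genes (3.54%). Over all names the bright share was 10.0%, so the signalling and lineage shares lay below it.

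The contractile and cytoskeletal genes passed most often of the stellate lists. All 30 passed, and 15 were bright. Their median level was 11.95, against 5.18 over all names and 7.02 over names in the reference table. Smooth muscle alpha-actin (Acta2), the standard marker of an activated stellate cell, stood at 14.69 with an SD of 0.041 over 10 spots. Vimentin (Vim), the intermediate filament of mesenchymal cells, stood at 16.00, and transgelin (Tagln), an actin-binding protein of smooth muscle, at 13.82. Filamin A (Flna, 15.72), zyxin (Zyx, 15.44), alpha-actinin 4 (Actn4, 14.67) and the nonmuscle myosin heavy chain Myh9 (15.76) build stress fibres and their anchors, and all were bright. So were the tropomyosins Tpm4 (14.65), Tpm1 (13.08) and Tpm2 (12.92) and the calponins Cnn3 (13.93) and Cnn2 (12.18).

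Genes of differentiated smooth muscle were found in every class that passed. Smooth muscle gamma-actin (Actg2, 12.52) and the myosin light chain Myl9 (12.42) were bright, as was Tagln. Calponin 1 (Cnn1) was at 8.91, leiomodin 1 (Lmod1), which nucleates actin filaments, at 7.95, and myosin light chain kinase (Mylk) at 7.99 with 2 of 3 probes passing. Smooth muscle myosin heavy chain (Myh11) was dim at 3.69. Desmin (Des), the intermediate filament long used to identify rodent stellate cells, was dim at 3.51, below the 95th percentile of the olfactory receptor genes. Myocardin (Myocd), the smooth muscle coactivator of serum response factor, was not well above background on either of its 2 probes, while serum response factor itself (Srf) stood at 10.52 and its actin-sensing coactivator Mrtfa at 13.24.

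Acta2 also shows how much a level depends on the probe. Its 5 probes read 14.69, 13.78, 9.47, 5.17 and 3.18, in the order in which the first 30 of their 60 bases are printed below, with positions on mm9. The first 4 carry RefSeq transcript accessions, and the fifth carries only a cDNA accession. The second spans an intron, since its 60 bases are placed over more than 3 kb of genome.

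Acta2 probe 1 (chr19:34316060-34316119, minus strand): gttttgtggatcagcgcctccagttccttt
Acta2 probe 2 (chr19:34322995-34326249, minus strand): atcatcaccaactgggacgacatggaaaag
Acta2 probe 3 (chr19:34315697-34315756, minus strand): acactgacttcacagctagagtgactattt
Acta2 probe 4 (chr19:34314826-34314866, minus strand): gaagccaagggtgtcccccaaaaatgcagt
Acta2 probe 5 (chr19:34327946-34328005, minus strand): tgttgttaaaacaaccctaaggggtatata

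All 5 passed, so the gene's call did not depend on the choice of probe, but its class did: 2 probes were bright and 2 were dim. Collagen alpha-2(I) (Col1a2) behaved alike, with 1 probe at 13.68 and the other, which carries no RefSeq accession, at 3.83.

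Serum response factor binds a short motif, the CArG box, in many actin and smooth muscle genes. In the 250 bases before the annotated start, an exact CArG box on either strand was found for 6 of the 26 contractile genes with a promoter in the RefSeq table (23.1%), against 378 of all 27025 promoters (1.4%). The 6 were Actc1, Myl9, Acta1, Cnn2, Actg1 and Vcl, of which Actg1, Myl9 and Cnn2 were bright and the cardiac actin gene Actc1 (11.73), vinculin (Vcl, 11.47) and the skeletal actin gene Acta1 (10.27) were in the middle class. Actin and smooth muscle genes are textbook targets of this factor, so the share describes the list and not this culture. A match is a stretch of letters and not a measured binding site. Of the contractile genes, 4 with an exact box are printed with Acta2, on GRCm38.p6 with the box in capitals. Acta2 has no exact box in this window. Stretches a single base off the motif were not counted, and its window holds such stretches, ccctatatgg and ccttgtttgg.

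Actg1 (chr11:120348496-120348745, minus strand): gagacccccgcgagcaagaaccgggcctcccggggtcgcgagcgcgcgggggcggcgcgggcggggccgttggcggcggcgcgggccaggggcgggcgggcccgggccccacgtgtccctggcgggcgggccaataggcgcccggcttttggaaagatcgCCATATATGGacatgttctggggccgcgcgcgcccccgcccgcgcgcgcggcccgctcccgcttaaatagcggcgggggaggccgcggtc
Myl9 (chr2:156775214-156775463, plus strand): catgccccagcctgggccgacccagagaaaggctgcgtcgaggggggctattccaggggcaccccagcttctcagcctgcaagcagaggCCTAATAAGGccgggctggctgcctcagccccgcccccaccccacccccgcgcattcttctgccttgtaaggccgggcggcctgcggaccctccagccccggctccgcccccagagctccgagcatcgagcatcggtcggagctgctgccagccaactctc
Cnn2 (chr10:79988350-79988599, plus strand): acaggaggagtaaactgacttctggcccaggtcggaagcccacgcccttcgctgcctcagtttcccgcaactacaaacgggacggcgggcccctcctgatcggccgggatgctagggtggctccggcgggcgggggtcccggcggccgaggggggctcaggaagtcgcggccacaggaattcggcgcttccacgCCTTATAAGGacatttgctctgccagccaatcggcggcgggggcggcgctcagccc
Vcl (chr14:20929148-20929397, plus strand): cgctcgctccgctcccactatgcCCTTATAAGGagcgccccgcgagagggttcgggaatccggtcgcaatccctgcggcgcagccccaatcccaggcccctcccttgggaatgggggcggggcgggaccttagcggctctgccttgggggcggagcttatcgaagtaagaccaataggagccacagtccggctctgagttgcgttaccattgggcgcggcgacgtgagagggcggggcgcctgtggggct
Acta2 (chr19:34255374-34255623, minus strand): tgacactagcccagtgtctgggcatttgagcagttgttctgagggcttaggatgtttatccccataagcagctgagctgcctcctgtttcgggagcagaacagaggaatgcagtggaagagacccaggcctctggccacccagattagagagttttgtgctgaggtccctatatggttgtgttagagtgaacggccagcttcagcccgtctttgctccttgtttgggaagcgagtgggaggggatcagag

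Activation markers gave a similar picture. Of 30 genes 27 passed, 13 were bright, and the median level was 11.36. The small calcium-binding proteins S100a4 (17.91) and S100a6 (17.73) were among the 30 brightest gene names of the whole array, together with 18S ribosomal RNA (Rn18s, 18.38), galectin 1 (Lgals1, 17.61), ferritin heavy chain (Fth1, 17.60) and many ribosomal protein genes. Connective tissue growth factor (Ccn2) stood at 15.17, the collagen-binding protein Sparc at 15.41, and the PDGF receptor Pdgfrb, the main mitogen receptor of activated stellate cells, at 12.28. Lysyl oxidase (Lox, 12.09) and the BMP antagonist Grem1 (11.22) were also well above background.

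Several markers of activated fibroblasts in other settings had little or no signal. Fibroblast activation protein (Fap, 0.03) and lumican (Lum, 0.00), a small proteoglycan of the collagen matrix, were not well above background, and of the 3 other limits tried Fap passed at 1 and Lum at none. The adhesion receptor Icam1 (2.16) did not pass either, though it did at all 3 other limits, whereas Vcam1 stood at 10.07 with 2 of 3 probes passing. The other PDGF receptor, Pdgfra, passed through 1 of its 2 probes, at 7.21.

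Genes of the quiescent stellate cell passed least often of the stellate lists. Of 30 genes 15 passed (50%, against 66.3% of all names and 73.3% of names in the reference table), and 2 were bright. The median level was 2.76, against 5.18 over all names and 7.02 over names in the reference table. Lecithin retinol acyltransferase (Lrat), which esterifies retinol for storage, stood at 0.48, and glial fibrillary acidic protein (Gfap), an intermediate filament of quiescent stellate cells, at 0.75. Neither was well above background on any of its probes (2 for Lrat and 3 for Gfap). The transcription factors Tcf21 (2.02) and Hand2 (1.98), the secreted protein reelin (Reln, 1.22) and hepatocyte growth factor (Hgf, 1.34 at the brightest of 4 probes) did not pass.

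These calls sit close to the limit, and they depend on where it is set. At the 3 other limits tried, 23 to 25 of the 30 passed. Tcf21, Hand2 and Reln passed at all 3, Lrat and Gfap at 2 of 3, and Hhip, Rgs5, Abcc9 and Ntf3 at none. Counting only genes above the 95th percentile of the olfactory receptors left 9. The bright members included extracellular matrix protein 1 (Ecm1, 14.67), which holds TGF-beta in its latent form in the liver. In the middle class lay Pparg (9.07), the nuclear receptor of adipogenic differentiation, Lhx2 (8.78), a LIM-homeodomain factor tied to quiescence, and the TGF-beta pseudoreceptor Bambi (8.53, 1 of 2 probes). Cytoglobin (Cygb), a haemoglobin relative found in stellate cells, stood at 6.76. Set against its label of a stellate line, the culture had signal for every contractile gene, a dim desmin signal, and signal at or near background for the retinoid-storage enzyme Lrat.

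**Figure D2:**
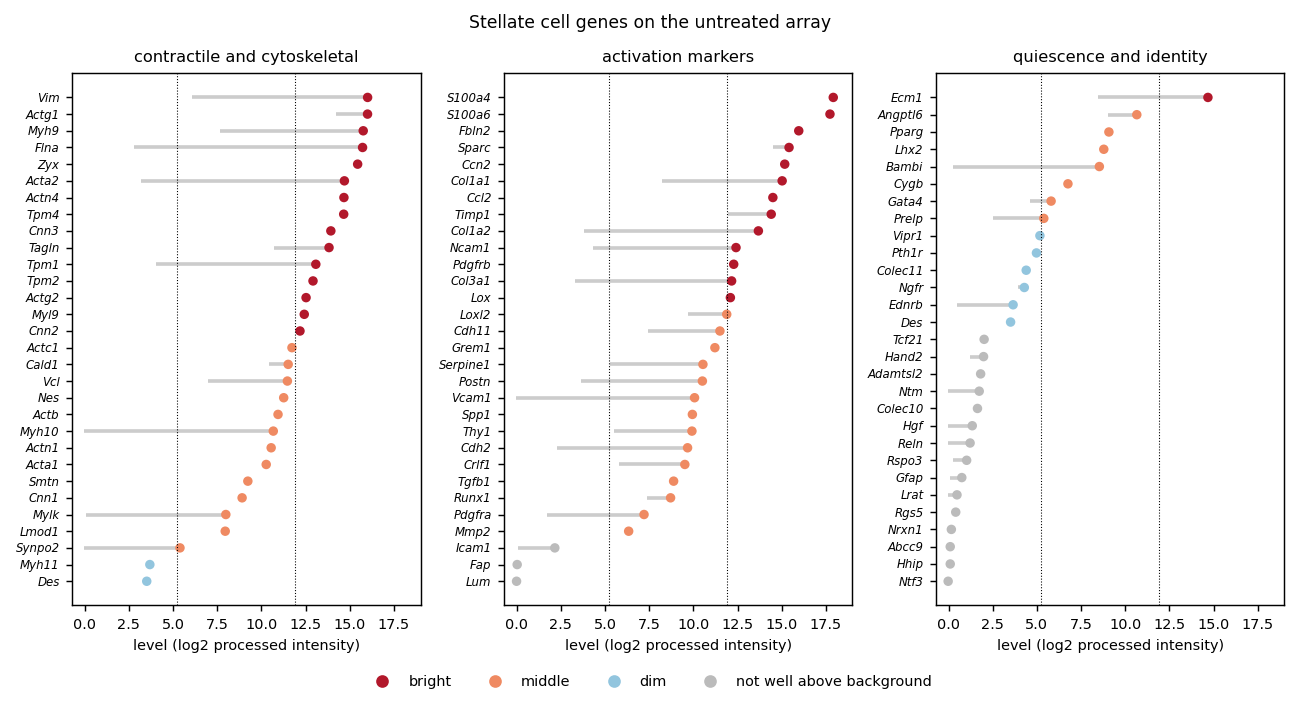
Level of each gene (x, log2 processed intensity) in the contractile, activation and quiescence lists, sorted within a list; a dot is the gene's level, its colour the class, and a grey bar reaches down to its dimmest probe. Dotted lines mark the limits for dim (5.23) and bright (11.90). All 30 contractile genes passed, against 15 of 30 quiescence genes, of which 29 are drawn.

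Of 25 retinoid genes 19 passed (76.0%, against 66.3% of all names), 4 were bright, and the median level was 6.91. Retinaldehyde dehydrogenase Aldh1a1, which makes retinoic acid, stood at 14.37, while its relatives Aldh1a2 (1.94) and Aldh1a3 (0.94) were not well above background. Enzymes that handle retinol and retinaldehyde were in the middle class, among them Rdh10 (10.52), Rdh11 (11.58) and Dhrs3 (8.68), as was the retinol transporter Stra6 (10.46). Of the retinoic acid receptors, Rarg stood at 8.79 with all 4 probes passing (the lowest at 4.17), Rarb at 5.93 with 1 of 2, and Rara was dim at 4.03. Cyp26b1, which breaks retinoic acid down, stood at 8.00 and Cyp26a1 at 3.41.

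Fibrillar collagens, the bulk of scar matrix, all passed (11 of 11), with a median level of 11. Col1a1 stood at 15.02, Col1a2 at 13.68, Col3a1 at 12.16, Col5a1 at 12.03 and Col5a2 at 11.98, and these 5 were the bright ones. The other probes of Col3a1 passed but read only 4.74 and 3.33. Cartilage-type fibrillar genes also passed: Col11a1 stood at 9.45 and Col2a1 at 8.72, each with 2 of 3 probes. Col24a1 (4.30) and Col27a1 (3.5) were dim.

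Of basement membrane collagen IV, the signal included Col4a1 (11.71) and Col4a2 (11.48), which form the common heterotrimer. Col4a5 (7.76) and Col4a6 (9.04) lay in the middle class, Col4a4 passed through 1 of 2 probes at 10.87, and Col4a3 (0.24), its usual partner, was not well above background on any of 3. Of the 11 network collagens 8 passed (72.7%, against 66.3% of all names), and Col8a1 was bright at 13.24 while Col8a2 (2.41) did not pass. Of 22 other collagens 14 passed (63.6%) with a median of 3.94, and only 9 lay above the 95th percentile of olfactory receptors. Col16a1 (12.74) and the anchoring fibril collagen Col7a1 (12.30) were the bright ones. Of the collagen VI chains, which form beaded filaments, Col6a1 (10.27) and Col6a2 (8.63) were in the middle class, and Col6a3 passed on 1 of its 3 probes at 5.79. Col14a1 (2.31), a fibril-associated collagen of fibroblasts, did not pass.

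Of 27 biosynthesis and crosslinking genes 26 passed, 10 were bright, and the median level was 11.68. The procollagen C-proteinase enhancer Pcolce stood at 16.35, the collagen chaperone Serpinh1 at 14.65, the prolyl isomerase Fkbp10 at 13.94 and the prolyl hydroxylase subunit P4hb at 13.74. Among the crosslinking enzymes Loxl1 (12.42), Lox (12.09) and the transglutaminase Tgm2 were bright, and Loxl2 (11.89) lay just under the limit. Tgm2 was bright on its brightest probe, while the median of its 3 probes was 6.58. The procollagen N-proteinase Adamts2 stood at 11.68 on the brightest of its 4 probes, whose median was 5.36. Adamts3 (0.85) was the member that did not pass.

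**Figure D3:**
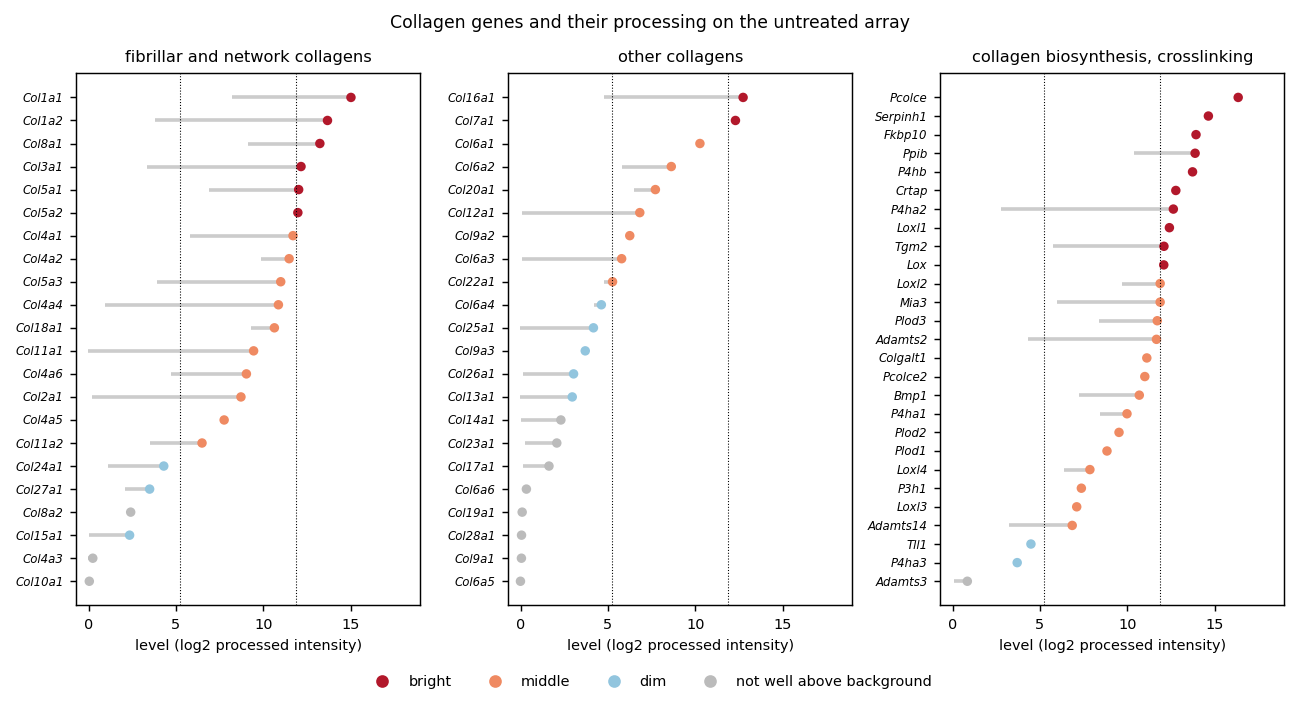
Level of each collagen gene and of the genes that process collagen (x, log2 processed intensity), sorted within a panel; a dot is the gene's level, its colour the class, and a grey bar reaches down to its dimmest probe. Dotted lines mark the limits for dim (5.23) and bright (11.90). Fibrillar genes run from Col27a1 (3.5) to Col1a1 (15.02).

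Of 15 laminin and basement membrane genes 14 passed and 5 were bright, among them nidogen 1 (Nid1, 13.35), agrin (Agrn, 12.85), perlecan (Hspg2, 12.32) and Lamc1 (12.84). The other probes of Agrn read only 3.17 and 0.03. Among laminin alpha chains Lama5 stood at 10.03, and Lama1 (0.10) did not pass. Of 43 matrix glycoproteins 39 passed and 11 were bright, including fibulin 2 (Fbln2, 15.96), Igfbp7 (14.85), Efemp2 (13.87), Efemp1 (13.33) and fibulin 5 (Fbln5, 13.11). For Fbln5 the other probes read 3.42 and 0.27. Fibronectin (Fn1) stood at 9.10, and its 4 probes ranged down to 5.30. Elastin (Eln, 4.31) and tenascin C (Tnc, 4.94) were dim, and vitronectin (Vtn, 1.43) did not pass.

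Of 31 proteoglycan and hyaluronan genes 23 passed (74.2%, against 66.3% of all names). The 3 bright ones (9.68%, near the 10.0% of all names) were the cell-surface heparan sulfate carriers Gpc1 (13.40), Sdc4 (13.07) and Sdc2 (12.09). Biglycan (Bgn) stood at 11.05 and osteoglycin (Ogn) at 10.40, decorin (Dcn) passed through 1 of 2 probes at 6.47, and fibromodulin (Fmod) was dim at 4.10. The Dcn probe that did not pass carries no RefSeq accession. Hyaluronan synthase 2 (Has2) stood at 7.78, whereas Has3 (0.01) did not pass.

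The list of matrix proteases held 41 genes with their inhibitors, of which 7 were bright. Of the 41, 32 passed (78.0%, against 66.3% of all names and 73.3% of names in the reference table). Of the tissue inhibitors of metalloproteinases, Timp2 stood at 16.46, Timp1 at 14.40 and Timp3 at 11.13, while Timp4 was dim at 3.79. The bright enzymes were the lysosomal cathepsins Ctsl (15.57) and Ctsb (15.06), the membrane collagenase Mmp14 (12.70) and the aggrecan-cleaving Adamts1 (12.11). Gelatinase A (Mmp2), which Mmp14 activates, stood at 6.34, stromelysin 1 (Mmp3) at 8.57, and the rodent interstitial collagenase Mmp13 was dim at 4.91. Gelatinase B (Mmp9, 2.41), Mmp8 (0.08) and Mmp12 (0.17), enzymes of leukocytes, were not well above background.

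Of 28 receptors for matrix 25 passed and 3 were bright (10.7%, near the 10.0% of all names). The bright ones were integrin beta 5 (Itgb5, 12.69), the hyaluronan receptor Cd44 (11.97) and the collagen receptor Ddr2 (11.91). Integrin beta 1 (Itgb1), the common partner of collagen and laminin receptors, stood at 11.06 and integrin alpha V (Itgav) at 9.08. All 6 Itgav probes passed, but their median was only 4.36 and the lowest read 3.14. Of the collagen-binding alpha chains Itga1 stood at 6.19, Itga11 (4.67) and Itga10 (2.52) were dim, and Itga2 (0.05) did not pass.

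The TGF-beta pathway, the main fibrogenic signal of stellate cells, was represented at each step. Of 21 genes 20 passed and 3 were bright. The ligands Tgfb3 (10.45), Tgfb1 (8.88) and Tgfb2 (7.94) and the activin subunit Inhba (11.45) lay in the middle class. The receptor Tgfbr2 was bright at 12.19, though 1 of its 3 probes did not pass, and Tgfbr1 stood at 8.50. Of the signal carriers Smad4 was bright, Smad2 stood at 10.68, Smad3 at 8.58 and the inhibitory Smad7 at 10.57. Acvrl1, a type I receptor of endothelial cells, did not pass (1.27). In the BMP list 20 of 27 passed (74.1%, against 66.3% of all names). The targets Id3 (11.87), Id1 (11.63) and Id2 (11.45) lay in the middle class, near the limit for bright. Bmp4 stood at 7.95, and Bmp2, Bmp5, Bmp10 and Gdf2 did not pass.

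PDGF and VEGF genes included both ligands and receptors, with 19 of 20 passing and 5 bright. Pdgfa stood at 12.84 beside the receptor Pdgfrb at 12.28. Pdgfb (2.08), the ligand with the highest affinity for that receptor, did not pass on either of 2 probes. Pdgfc stood at 9.87. Vegfd (12.67), Vegfb (12.48) and the semaphorin and VEGF coreceptor Nrp2 (12.77) were bright, and Vegfa stood at 11.30.

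Among other growth factors neuregulin 1 (Nrg1, 13.02) and the macrophage growth factor Csf1 (12.97) were bright, and Gas6 (10.97) accompanied its bright receptor Axl (12.38). The Hgf receptor Met stood at 11.49 with all 3 probes passing, while Hgf itself did not pass. Igf1 stood at 8.47 and its receptor Igf1r at 9.49, and insulin receptor (Insr) was dim at 4.43. The neuregulin receptors gave a divided signal. Erbb2 stood at 8.83 with both probes passing, whereas Erbb4 (11.05, 1 of 4 probes) and Erbb3 (7.63, 1 of 5) passed only through a probe without a RefSeq accession. The stem cell factor gene Kitl stood at 9.52, and its receptor Kit (0.39) did not pass.

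Of 23 Wnt ligands 16 passed (69.6%, near the 66.3% of all names), none was bright, the median was 3.40, and 7 lay above the 95th percentile of olfactory receptors. These 7 were Wnt7a (8.47), Wnt9a (7.65), Wnt6 (7.20), Wnt10a (6.93), Wnt4 (6.74), Wnt5a (6.61) and Wnt7b (5.72). Their receptors and effectors passed in 27 of 31 cases, with beta-catenin (Ctnnb1, 12.86) and Fzd2 (11.93) bright, Lrp6 at 7.50 and the feedback target Axin2 at 6.09. The stem cell receptor Lgr5 (0.12) and the inhibitors Dkk1 (0.14) and Dkk2 (-0.04) did not pass.

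In the Hedgehog list the transducer Smo was bright (13.39, 2 of 3 probes) and the repressor Gli3 stood at 11.03. The pathway's targets were dim, Ptch1 at 4.74 and Gli1 at 2.86, and Hhip (0.10) and the ligand Shh (0.08) did not pass. Of 15 Notch genes 14 passed and none was bright. Notch2 stood at 10.82, Notch3 at 8.99 and the ligand Jag1 at 8.62, while the target Hes1 stood at 5.75 and Heyl (2.20) did not pass. Restricting these lists to levels above the 95th percentile of olfactory receptors left 6 of 14 Hedgehog and 8 of 15 Notch genes.

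The Hippo pathway's effectors and targets passed throughout, 17 of 17 with a median of 10.63. The coactivator Wwtr1, also called TAZ, was bright at 13.23, and its relative Yap1 stood at 10.28. Their targets Ccn2 (15.17), Ankrd1 (13.46) and Ccn1 (12.79) were bright, and of the DNA-binding partners Tead1 stood at 11.59 while Tead3 was dim at 5.10.

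Receptors for vasoactive and lipid mediators were mostly middle or dim, with a median of 5.37. Of 34 genes 27 passed (79.4%, against 66.3% of all names and 73.3% of names in the reference table). The thrombin receptor F2r was bright at 13.36 and endothelin-converting enzyme (Ece1) at 12.04. Endothelin 1 (Edn1) stood at 7.79, but both endothelin receptors were dim, Ednrb at 3.65 (1 of 2 probes) and Ednra at 2.83 (1 of 4). The angiotensin receptor Agtr1a was dim at 4.89, and Agtr1b and Agtr2 did not pass. Receptors of the middle class included those for sphingosine phosphate and lysophosphatidate, S1pr2 (9.47), Lpar2 (9.36) and Lpar1 (8.87). Both cyclooxygenases were in the middle class, Ptgs1 at 11.65 and Ptgs2 at 9.27.

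Sensors of innate immunity passed in 21 of 23 cases, with a median of 9.17. The nucleotide-sensing adaptor Sting1 was bright at 12.85 and its partner Cgas stood at 10.78. Tlr4, the receptor for endotoxin and one proposed to mediate effects of saturated fatty acids, stood at 9.17 on a probe with 10 spots (SD 0.0435). Its other probe, which carries no RefSeq accession, read 0.78 and did not pass. Its coreceptors Ly96 (10.50) and Cd14 (8.96) and the adaptor Myd88 (10.73) also passed. Tlr2 stood at 10.20 and Tlr9 at 10.44, and the single-stranded RNA sensors Tlr7 (1.84) and Tlr8 (-0.02) did not pass.

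Of 34 cytokine and chemokine genes only 18 passed (52.9%, against 66.3% of all names), with a median of 3.27. Yet 4 were bright: the monocyte attractants Ccl2 (14.50) and Ccl7 (13.62), the stromal factor Cxcl12 (14.18) and Csf1. Cxcl10 (11.80) and Ccl5 (11.28), which attract T cells, were in the middle class. Il6 stood at 5.94. Tnf (0.73), Il1b (0.07) and Il1a (0.18), the early inflammatory cytokines, and Ifnb1 (1.19) were not well above background, as were the receptors Ccr2, Cxcr3 and Cxcr4. Receptors for cytokines passed more often, 25 of 30, including Tnfrsf1a (12.94), Il11ra1 (12.43), the shared subunit Il6st (10.85) and Osmr (10.17). The leptin receptor (Lepr) was dim at 2.48, while both adiponectin receptors were well above background, Adipor2 at 13.42 and Adipor1 at 11.24.

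Of 37 nuclear receptors 30 passed (81.1%, against 66.3% of all names and 73.3% of names in the reference table). The orphan receptors Nr2f6 (13.05) and Nr2f2 (12.29) were bright. The bile acid receptor Nr1h4 (10.76), the vitamin D receptor Vdr (10.19) and the glucocorticoid receptor Nr3c1 (10.19) lay in the middle class, each of them a receptor that has been studied in stellate cells. Among the fatty acid sensors Pparg stood at 9.07, and Ppara (4.60) and Ppard (3.82) were dim.

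Mesenchymal transcription factors passed in 36 of 40 cases, with a median of 8.88. Klf4 (13.41), Mrtfa (13.24), Twist2 (12.43) and Nr2f2 were bright. Snai2 (11.38), Prrx1 (10.83), Snai1 (10.11), Twist1 (9.41) and Tbx18 (10.10) specify or maintain mesenchyme and lay in the middle class. Among factors that mark liver stellate cells or their mesothelial origin, Gata6 stood at 9.97, Gata4 at 5.80 and Foxf1 was dim at 4.71, and Tcf21, Hand2 and Wt1 (1.18) did not pass.

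Hox genes record position along the body axis. Of 38 Hox genes on the array 27 passed. This share, 71.1%, was near the 66.3% of all names and the 73.3% of names in the reference table. By cluster, 9 of 11 Hoxa, 9 of 10 Hoxb and 7 of 8 Hoxc genes passed, against 2 of 9 Hoxd genes. Hoxa7 passed the limit for bright at 12.12, and Hoxb9 (just under that limit), Hoxc9 (10.94), Hoxb6 (10.84) and Hoxb8 (10.08) were among those of the middle class. The median was 7.50 for Hoxa, 8.75 for Hoxb and 6.99 for Hoxc genes. The Hoxd cluster had a median of 0.79 and a highest level of 3.96. Its passing members, Hoxd9 (3.96) and Hoxd13 (3.36), were dim and passed on 1 of 2 probes each. In the other clusters the genes that did not pass were Hoxa11, Hoxa13, Hoxb1 and Hoxc8.

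**Figure D4:**
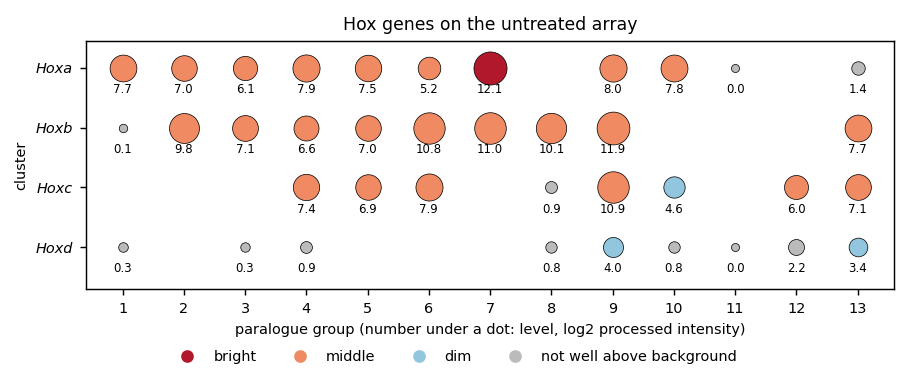
Hox genes by cluster (y) and paralogue group (x); the dot's area grows with the level, its colour gives the class, and the number under it is the level (log2 processed intensity). Of 9 Hoxd genes 2 passed, both dim, with levels up to 3.96, against 25 of 29 genes in the other clusters. Over all gene names 66.3% passed.

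Markers of the other liver cell types passed in part. The share was 27.8% of hepatocyte, 44.4% of macrophage and 46.7% of lymphocyte genes, against 66.3% of all names. The endothelial share (9 of 18) was also lower, while the biliary share, 61.1%, was near that of all names. Of 18 hepatocyte genes 5 passed, and the defining ones did not: albumin (Alb) read 0.08, transthyretin (Ttr) 0.29, Cyp2e1 -0.04, Cps1 0.05 and Apoa1 0.68, and none of these 5 passed at the other limits tried. Those that passed were alpha-fetoprotein (Afp, 7.75), tyrosine aminotransferase (Tat, 6.18) and, dim, G6pc1, Cyp3a11 and Hnf4a. Endothelial markers passed in 9 of 18 cases. Pecam1 (0.14), Cdh5 (0.39), Tie1 (0.01), Erg (0.03) and Emcn (0.08) were not well above background at any of the 4 limits, while Egfl7 (10.38), von Willebrand factor (Vwf, 8.88, 2 of 3 probes), Kdr (8.19, 1 of 2) and Plvap (7.30) passed. The Kdr probe that did not pass carries no RefSeq accession.

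Of 18 macrophage and Kupffer cell genes 8 passed and none was bright. The pan-leukocyte gene Ptprc (0.14), the macrophage gene Adgre1 (0.30), the myeloid factor Spi1 (-0.01) and the Kupffer cell gene Clec4f (1.28) did not pass. At the 3 other limits Clec4f passed and Ptprc and Spi1 did not. Lysozyme (Lyz2) reached 7.37 through a probe without a RefSeq accession, and Cd68, a lysosomal protein, stood at 6.41. Of 15 lymphocyte genes 7 passed, including Lck (6.18) and Cd3e (6.26, 1 of 2 probes), and 2 lay above the 95th percentile of olfactory receptors.

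Of 18 biliary and epithelial genes 11 passed and none was bright. The simple keratins Krt7 (9.08), Krt19 (8.40), Krt8 (5.67) and Krt18 (5.55) and the ductal factor Sox9 (7.93) were in the middle class. E-cadherin (Cdh1, 0.22), Epcam (0.33) and the tight junction genes Ocln and Cldn4 did not pass, nor did the epithelial regulators Grhl2, Esrp1 and Elf3.

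Of 18 portal fibroblast and mesothelial genes 13 passed and 3 were bright. The share that passed, 72.2%, was near the 66.3% of all names and the 73.3% of names in the reference table. Fibulin 2, mesothelin (Msln, 14.97) and Cd34 (12.47) were bright, and Thy1 (9.92), Slit2 (10.14) and Gas6 (10.97) were in the middle class. Other genes of the same cells were not: Wt1, Upk1b, Upk3b, Gpm6a and Dpt did not pass, and elastin and Col15a1 (2.35) were dim. Mesothelin is the classical surface antigen of mesothelium, and activated portal fibroblasts have been described to carry it. Markers of either lineage were thus found on both sides of the detection limit.

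Markers of pericytes and of other mesenchyme were partial. In the vascular smooth muscle and pericyte list 8 of 14 passed (57.1%, against 66.3% of all names). Among them were Mcam at 9.78, Notch3 at 8.99 and Cspg4 (NG2) at 8.07, while Rgs5, Kcnj8, Abcc9 and Higd1b were not well above background. Of 12 adipocyte genes 6 passed: Fabp4 (11.35), Pparg and Cebpa (5.92) in the middle class, and Lipe, Cidec (3.71) and Ucp1 (3.31) dim. Adipoq (0.92), Plin1 (1.18) and leptin (Lep, 1.29) did not. Neural genes included Ncam1, a cell adhesion molecule that also marks activated stellate cells. Ncam1 was bright at 12.41 on its brightest probe. All 8 of its probes passed, but their median was 6.51 and the lowest read 4.34. Muscle, bone and neural lists otherwise had medians of 3.11 to 4.03.

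**Figure D5:**
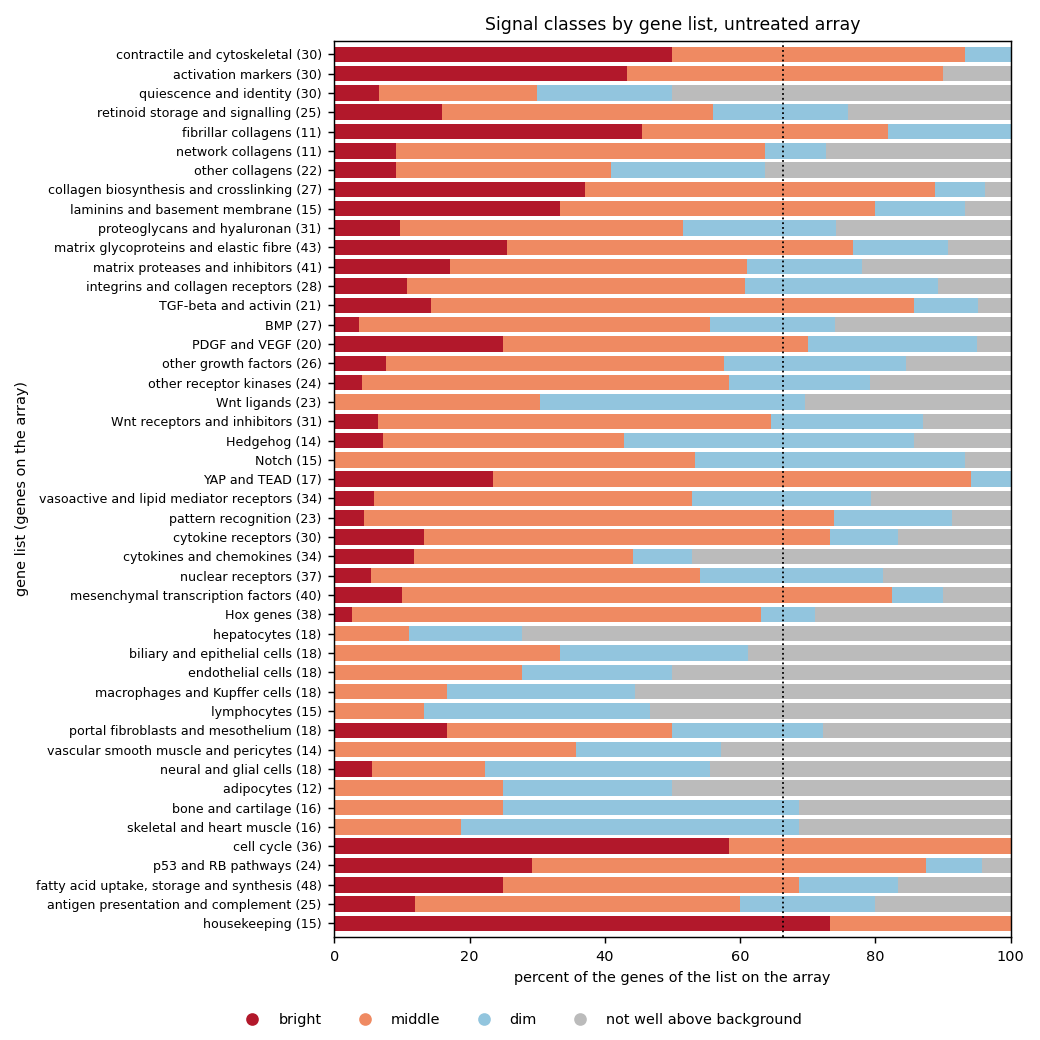
Share of the genes of each list on the array (x, percent) that were bright, middle, dim or not well above background, with the number of genes in brackets; the dotted line is the 66.3% of all gene names that passed. Contractile, fibrillar collagen, YAP and TEAD, cell cycle and housekeeping genes all passed, against 5 of 18 hepatocyte genes.

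Cell cycle genes had signal throughout. All 36 of them passed and 21 were bright, among them the replication genes Pcna (14.96) and Mcm6 (14.72), the proliferation antigen Mki67 (14.03), the mitotic inhibitor of apoptosis Birc5 (15.54) and Cdc20 (13.79). In the p53 and RB list 23 of 24 passed and 7 were bright. The p53 gene Trp53 stood at 10.71 and Rb1 at 9.48. Of the inhibitors of cyclin-dependent kinases Cdkn1a (12.83), Cdkn2b (12.69), Cdkn2c (12.35) and Cdkn2d (12.23) were bright, and Cdkn2a, the gene of p16 and p19ARF, stood at 11.41. Telomerase (Tert) was dim at 4.66.

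Genes of fatty acid handling were listed because the series exposes the same line to PA. Of 48 genes 40 passed (83.3%, against 66.3% of all names) and 12 were bright. Bright genes of synthesis and desaturation included Scd2 (15.85), fatty acid synthase (Fasn, 15.78) and Elovl6 (12.27), with the regulators Srebf2 (14.72) and Srebf1 (13.35). The lipid droplet coats Plin2 (14.86) and Plin3 (12.81) were bright, whereas the adipocyte form Plin1 did not pass. For uptake, the transporters Slc27a1 (11.53) and Slc27a4 (9.83) passed, but Cd36 (-0.01) did not pass on either of 2 probes. The carriers Fabp3 (11.65), Fabp4 (11.35) and Fabp5 (7.44) passed and liver Fabp1 (-0.03) did not. The fatty acid receptors Ffar1 (2.36), Ffar2 (1.30) and Ffar4 (0.25) were not well above background. Acyl-CoA activation and mitochondrial import were represented by Acsl4 (12.79) and Cpt1a (11.94).

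Of 25 genes of antigen presentation and complement 20 passed (80.0%, against 66.3% of all names and 73.3% of names in the reference table). The class I genes B2m (16.35) and H2-K1 (15.54) were bright, and the peptide transporter Tap1 stood at 7.29. Of class II, H2-Ab1 stood at 7.64 with all 4 probes passing, the lowest at 4.2. Cd74 stood at 5.96 and H2-Eb1 was dim at 5.19, while H2-Aa (0.18) and the class II transactivator Ciita (2.04) did not pass.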

How the data were processed

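The deposited file of the untreated array holds an intensity for each spot, per the file headers. The authors' scanner software (Agilent Feature Extraction 12.1.1.1, protocol GE1_105_Dec08, array design 014868, build mm9) had subtracted background and detrended these values within the array. RNA was extracted with ISOSPIN and labelled with Cy3 by the Quick Amp kit, per the labels' protocols. Quantile normalization, named in the series' design notes, is not in this file and was not applied. R 3.5.1 is named in the submitters' processing notes.

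Of 45018 spots, 43379 were not controls, 82 outlier spots were dropped, and 0 were saturated. The 75th percentile of the intensity was 494.6, and the spike-in series had a slope of 0.945 (R2 0.984). Intensities were taken to log2 and averaged over the spots of each of 41164 probes, and 27806 probes (67.5%) were well above background on more than 50% of their spots. The software sets a surrogate value for weak spots (8582 spots), so values not well above background have no order. RefSeq accessions named 28696 probes through the reference genes of GRCm38.p6, which changed 635 names, and 12478 kept the file's name. Symbols in the file can be old. Some listed genes are counted but not reported here by name. No gene structure on mm9 was used, so exons and UTRs are not given for probes. Promoters are RefSeq sequences of that build.

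A gene took the level of its brightest passing probe. The steps were tested on simulated data. Any list member, and outside the lists the 30 brightest gene names, could be named; other names were chosen after their values were seen. The members, the 46 lists and the rules were chosen with earlier results of these data known. Python 3.11.15 (numpy 2.4.6, pandas 2.3.3, matplotlib 3.10.9) and R 4.3.3 (limma 3.58.1, and version 1.17.8 of data.table) were used. Alternatives covered the detection limit, the background correction, the choice of probes and names, outlier spots and the limit for bright.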

Additional observations from a re-analysis of the deposited data

How the results depend on the processing

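With 1 array, no replicate could be left out and no comparison between cultures was made. No paired analysis was possible because the result comes from 1 sample and from no test. The number of genes well above background ranged from 13364 to 21282 over 8 alternatives, against 17777, and stayed within 1.5 times of it. The stellate count (89) ranged from 77 to 104, the matrix count (192) from 153 to 209 and the signalling count (306) from 224 to 342. The lineage count (159) reached 204 with the looser flag of the scanner software and 100 when only levels above the 95th percentile of olfactory receptor genes counted, the 1 value of these that moved by more than 1.5 times. That limit and the use of RefSeq-matched probes alone were chosen after seeing the data. Counts of single lists moved by more than 1.5 times for 15 of 46 lists under the olfactory limit, 5 with the looser flag, 5 with normexp background correction (offset 50), 3 with the 99th percentile of negative controls and 4 when over 50% of a gene's probes had to pass. None moved with outlier spots kept, the file's own names or RefSeq-matched probes alone. Bright counts moved for 24 lists with the top 5% and 33 with the top 25% of names. With normexp 960 of 1068 named levels moved by more than the spot SD, as did 456 with the median of a gene's probes. Precision is limited by the single array, and near background by the signal over background, where the SD between spots was 0.351.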

Other observations

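Some values outside the lists were chosen after they were seen. The receptor phosphatase gene Ptprz1 had the second highest level of all gene names, 18.22, but through 1 of 4 probes. The others read 0.14, 0.01 and -0.03 and were not well above background, and the bright probe carries no RefSeq accession. Single-probe genes of tissues far from liver could also be high: the hair keratin-associated gene Krtap4-6 stood at 15.29 and the olfactory receptor gene Olfr571 at 11.15. Genes of the Y chromosome passed, Eif2s3y at 10.77, Ddx3y at 10.38, Kdm5d at 7.64 and Uty at 6.30, while Usp9y (0.20) did not, and the X-inactivation RNA Xist passed dimly (2.57) on 1 of 4 probes. The chromatin proteins of fetal and transformed cells Hmga1 (15.36) and Hmga2 (11.28) passed, as did the proliferin genes Prl2c5 (9.68) and Prl2c3 (9.12).

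Promoters also differed by class. The ratio of observed to expected CpG was taken over 300 bases, 250 before the start and 50 after it. It was over 0.6 for 80.3% of 2002 bright, 71.6% of 7531 middle, 32.4% of 2296 dim and 17% of 4208 genes not well above background. Without the olfactory receptor genes, the last share was 19.6% of 3644. Over all 16037 genes with a level and a promoter the share was 52.7%. Cell cycle genes were at 89.7% of 29, contractile genes at 50% of 26, near that share, and activation markers at 21.4% of 14.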
